A study of Homo sapiens with 16 samples.

Results

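The promoters of the zinc finger genes of human chromosome 19 were described for the histone mark H3K27ac, for CTCF, for the cohesin subunit RAD21 and for YAP1, before and after hyperosmotic stress. The genes were all protein-coding genes on chromosome 19 in GENCODE release 44 whose symbol starts with ZNF, 249 in number. Their promoter intervals were those of the deposited table within 1 kb of an annotated transcript start. Of the 249 genes, 197 had such an interval and 52 had none. The 197 genes had 234 promoter intervals, out of 74404 intervals in the table. Intervals over a last exon were kept apart, and there were 3 of these. The gene set was chosen by H3K27ac values of these same libraries: lower H3K27ac after sorbitol at ZNF470 and ZNF582 had been seen when it was proposed. H3K27ac differences between sorbitol and vehicle are therefore given as a description, without a test.

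The cells were HEK293, an established human embryonic kidney line, with an eGFP-YAP genotype in all groups, and were starved of serum for 1 h before treatment. CUT&Tag uses an antibody to direct a Tn5 transposase to DNA near its target, and was done with antibodies against CTCF, RAD21 and H3K27ac, and with a GFP antibody that binds the tagged YAP protein. Libraries of the latter are named YAP1. Each of the 4 targets had 2 libraries from cells given vehicle and 2 from cells given 200 mM sorbitol for 1 h, which makes 8 groups and 16 libraries. The table's column names give vehicle the start of the time course, so time and treatment may differ together. The labels do not say whether replicates came from separate cultures, so p-values measure only the spread between these samples. A control antibody was not analysed here, and whether the cells were 1 clone is not stated in the sources used here.

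Libraries held 1.19 to 8.84 M counts (M, 1000000), and mitochondrial intervals took 1.95% to 57.8% of them. The zinc finger promoters held 1394 to 26999 counts per library. Their median interval had 41.0 to 78.5 counts in the H3K27ac libraries, 6.00 to 19.5 for CTCF, 4.00 to 25.5 for YAP1 and 3.00 to 12.0 for RAD21. Promoters of PAX2, NEFL, NEFM, VIM, KRT8 and KRT18, which HEK293 cells are known to express, carried H3K27ac with vehicle, from 11.4 CPM at NEFM to 160 CPM at VIM. CPM is counts per 1000000 on library sizes scaled by the trimmed mean of M values (TMM). PTPRC, CD3E, ALB, PECAM1 and CDH5, which mark blood, liver and endothelium, had no promoter interval in the table. MYOD1, a muscle regulator, had 9.83 and 12.1 CPM.

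Most of these genes encode proteins with tandem C2H2 zinc fingers, each of which contacts a few bases of DNA, and many carry a KRAB domain. The KRAB domain binds TRIM28, which brings the histone methyltransferase SETDB1 and HP1 proteins to the bound DNA and silences it; transposable elements are the best known targets. The genes arose by repeated tandem duplication and stand in clusters on chromosome 19, where the 3′ ends of many of them carry H3K9me3. H3K27ac marks active promoters and enhancers, CTCF binds a long sequence motif and stops cohesin as it extrudes chromatin loops, and YAP1 is a co-activator that is brought to DNA mainly by TEAD proteins.

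Genes whose starts were under 1 Mb apart were joined, and groups of 5 or more genes were called clusters. This gave 9 clusters, numbered from the short-arm end to the long-arm end of chromosome 19, and 11 isolated genes. Cluster 1 ran from ZNF554 to ZNF77 (2.820 to 2.945 Mb, hg38) with 5 genes, cluster 2 from ZNF557 to ZNF846 (7.070 to 9.793 Mb) with 16, and cluster 3 from ZNF653 to ZNF791 (11.48 to 12.64 Mb) with 26. Cluster 4 ran from ZNF101 to ZNF254 (19.67 to 24.13 Mb) with 37 genes, on the short-arm side of the centromere. Cluster 5 was ZNF302 to ZNF792 (34.68 to 34.96 Mb) with 5 genes, and cluster 6 was ZNF565 to ZNF573 (36.18 to 37.82 Mb) with 26. Cluster 7 ran from ZNF575 to ZNF296 (43.53 to 45.08 Mb) with 24 genes, cluster 8 from ZNF175 to ZNF331 (51.57 to 53.58 Mb) with 40, and cluster 9 from ZNF628 to ZNF446 (55.48 to 58.48 Mb) with 59. Cluster 4 had the lowest share of genes with a promoter interval, 48.6%, against 100% in clusters 5 and 6 and among the isolated genes. The genes of a cluster share sequence by descent, and how reads that fit several copies were counted is not given in the sources used here, so values of near-identical copies are uncertain. Intervals with a start of 2 genes of the set numbered 16, and 34 lay also within 1 kb of a protein-coding start outside the set; their counts cannot be split between the genes.

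RefSeq promoters on GRCh38.p14, from 250 bases before to 50 after a start, were found for 218 of the 249 genes, 270 promoters in all. Exact matches on both strands were counted for the ETS core CCGGAAG, for ACTACAA of ZNF143, for AAGATGGC of YY1, for GGAATG of TEAD and for TGANTCA of AP-1. The ETS core was in 40.7% of the zinc finger promoters, 27.1% of those of ZNF genes on other chromosomes and 10.3% of all RefSeq promoters. It was in 3 of 4 promoters of cluster 5 (75%), 73.3% of those of cluster 4, 56.5% in cluster 8 and 55.0% in cluster 9, but in 0 of 6 in cluster 1 and in 7.41% in cluster 3. A pair of further strings, chosen after the sequences had been seen to hold them often, split the clusters. TCCAATCA, which includes the letters CCAAT of the CCAAT box, was in 29 of 30 promoters of cluster 4 (96.7%), 74.1% of those of cluster 3 and 66.7% of those of cluster 1, in 1 promoter of cluster 8 and in none of the other groups. ACTACATT, which shares its first letters with the ZNF143 string but cannot match at the same place, was in 30.0% of promoters of cluster 9, 29.2% in cluster 7, 1 of 4 in cluster 5 (25%) and 24.4% in cluster 6, in 1 promoter each of cluster 8 and the isolated genes, and in none of clusters 1 to 4. Over all RefSeq promoters TCCAATCA was found in 1.54% and ACTACATT in 0.991%. The GGAATG string of TEAD, the DNA-binding partner of YAP1, was in 14.1% of the zinc finger promoters and 14% of all. A match is a run of letters and not a measured binding site.

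The sequences below, from RefSeq, lie just before the start of 7 genes and show every match to the strings named above in capitals; they run 5′ to 3′ on the gene's strand and leave out annotated exons. ZNF582 is 1 of the genes that prompted the set and holds an ETS core and the YY1 string, the latter on the other strand as GCCATCTT, at chr19:56393539-56393655, minus strand. ZNF850 of cluster 6 holds ACTACATT, at chr19:36772826-36773057, minus strand. ZNF681 and ZNF85 of cluster 4 show how like each other paralogous promoters are; both hold TCCAATCA, ZNF85 at a pair of places and ZNF681 beside an ETS core written on the other strand as CTTCCGG. They lie at chr19:23758892-23759141, minus strand, and chr19:20923001-20923221, plus strand. ZNF772, ZNF507 and ZNF324B hold none of the strings in these stretches, at chr19:57477571-57477648, minus strand, chr19:32345360-32345593, plus strand, and chr19:58451372-58451610, plus strand. They are shown for the H3K27ac of the first pair and the CTCF of the last, given further on.
ZNF582: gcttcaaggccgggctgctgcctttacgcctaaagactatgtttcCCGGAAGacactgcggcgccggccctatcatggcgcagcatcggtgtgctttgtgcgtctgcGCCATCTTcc
ZNF850: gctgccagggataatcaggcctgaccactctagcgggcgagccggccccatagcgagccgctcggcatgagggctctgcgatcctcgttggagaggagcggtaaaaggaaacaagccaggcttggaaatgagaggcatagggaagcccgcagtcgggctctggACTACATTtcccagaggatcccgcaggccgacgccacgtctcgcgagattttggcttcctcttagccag
ZNF681: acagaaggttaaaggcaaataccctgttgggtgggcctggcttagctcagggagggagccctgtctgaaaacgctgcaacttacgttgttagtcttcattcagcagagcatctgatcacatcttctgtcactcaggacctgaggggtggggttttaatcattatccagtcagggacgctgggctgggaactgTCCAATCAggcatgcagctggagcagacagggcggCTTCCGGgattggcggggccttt
ZNF85: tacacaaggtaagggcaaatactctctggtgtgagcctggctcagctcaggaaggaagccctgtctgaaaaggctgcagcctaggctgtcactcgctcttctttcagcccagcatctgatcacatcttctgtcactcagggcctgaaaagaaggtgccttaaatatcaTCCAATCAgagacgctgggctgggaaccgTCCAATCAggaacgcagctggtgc
ZNF772: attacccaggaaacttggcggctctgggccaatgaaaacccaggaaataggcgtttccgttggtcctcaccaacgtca
ZNF507: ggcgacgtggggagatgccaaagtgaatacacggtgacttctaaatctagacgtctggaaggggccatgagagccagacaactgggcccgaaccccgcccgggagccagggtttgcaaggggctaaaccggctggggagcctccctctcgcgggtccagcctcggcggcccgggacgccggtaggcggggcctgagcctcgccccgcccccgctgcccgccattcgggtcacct
ZNF324B: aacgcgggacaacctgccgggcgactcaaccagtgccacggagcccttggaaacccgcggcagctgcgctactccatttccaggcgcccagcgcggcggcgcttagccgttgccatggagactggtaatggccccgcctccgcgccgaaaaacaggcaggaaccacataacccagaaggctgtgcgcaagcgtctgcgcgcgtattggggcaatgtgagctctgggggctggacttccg

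H3K27ac was lower after sorbitol at nearly all of these promoters, by a median of -1.28 on the log2 scale. Of the 234 promoter intervals, 212 had enough counts to be fitted and 206 of these had a negative log2 fold change. The count filter asks for a minimum in 2 libraries, and 18 of the 212 met it in the vehicle libraries alone, so that they could hardly be other than lower. The share of all tested intervals with an adjusted p under 0.05 was 23.1% for H3K27ac, 14.5% lower; in the zinc finger promoters 164 intervals were lower and 1 was higher by that measure, from which nothing is read because the set was chosen on this contrast. In 195 of 212 (92.0%) both sorbitol libraries were below both vehicle libraries, against 30.6% of all tested intervals. The level per kilobase, as the median over the promoters of the group mean, was 15.5 CPM with vehicle and 6.66 with sorbitol. Promoters of ZNF genes on other chromosomes started higher, at 35.8 CPM per kilobase, and had a median log2 fold change of -0.36. Promoters of the other protein-coding genes of chromosome 19 went from 23.9 to 16.5 CPM per kilobase, with a median log2 fold change of -0.47, and all protein-coding promoters had one of -0.13.

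At ZNF470, a KRAB zinc finger gene of cluster 9 (chr19:56567038-56567956, 5′ untranslated exon), H3K27ac was 10.6 and 12.9 CPM with vehicle and 1.30 and 0.994 CPM with sorbitol. The log2 fold change was -3.33, with a standard error (SE) of 0.35. At ZNF582 (chr19:56393043-56393904) it was 9.67 and 8.66 CPM with vehicle and 1.08 and 0.746 CPM with sorbitol, or -3.29 (SE 0.39). Both are in cluster 9, and their libraries did not overlap. The lowest log2 fold change of all was that of ZNF772 (chr19:57477120-57477801), at -3.44 (SE 0.56), from 4.03 and 5.07 CPM to 0.432 and 0.373 CPM. ZNF586 (chr19:57769677-57770101) went from 4.19 and 6.05 CPM to 0.756 and 0.373 CPM, or -3.12 (SE 0.52). These too are KRAB zinc finger genes of cluster 9, so all the 4 most negative values came from 1 cluster, which held 56 of the 212 tested intervals. All 4 met the count filter in the vehicle libraries alone, so that they could hardly be other than lower, and ZNF470 and ZNF582 prompted the set. Their sorbitol values rest on 3 to 12 counts per library.

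The promoters with most H3K27ac ranged from a clear to a small difference. ZNF787 (chr19:56119690-56121857) had 112 and 123 CPM with vehicle and 56.2 and 50.9 CPM with sorbitol, a log2 fold change of -1.13. ZNF524 had 80.9 and 85.5 CPM and then 24.9 and 19.5 CPM, or -1.90. ZNF428 had 80.9 and 81.7 CPM and then 43 and 40.1 CPM, or -0.97. At ZNF574 the values were 91.7 and 89.3 CPM with vehicle and 77.0 and 78.9 CPM with sorbitol, or -0.22, and at ZNF576 they were 61.9 and 63.3 CPM and 54.3 and 56.3 CPM, or -0.18. The libraries of both groups stayed apart at each of these promoters, though by little at ZNF574 and ZNF576. Across the 212 promoters the H3K27ac log2 fold change had a Pearson correlation of 0.17 with the log2 vehicle level and 0.00 with GC content; these points share the libraries, and the values are descriptions.

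In 3 promoter intervals both sorbitol libraries were above both vehicle libraries. ZNF507, an isolated gene (chr19:32345364-32346364), had 15.2 and 16.5 CPM with vehicle and 26.1 and 24.7 CPM with sorbitol, or 0.68 in log2 (SE 0.16). ZNF541, a gene of male germ cells that is also isolated here, had 1.13 and 0.981 CPM and then 2.05 and 2.11 CPM. ZNF581 of cluster 9 had 52.5 and 55.9 CPM and then 56.3 and 60 CPM, or 0.10. ZNF507 is the 1 interval counted as higher above.

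**Figure D1:**
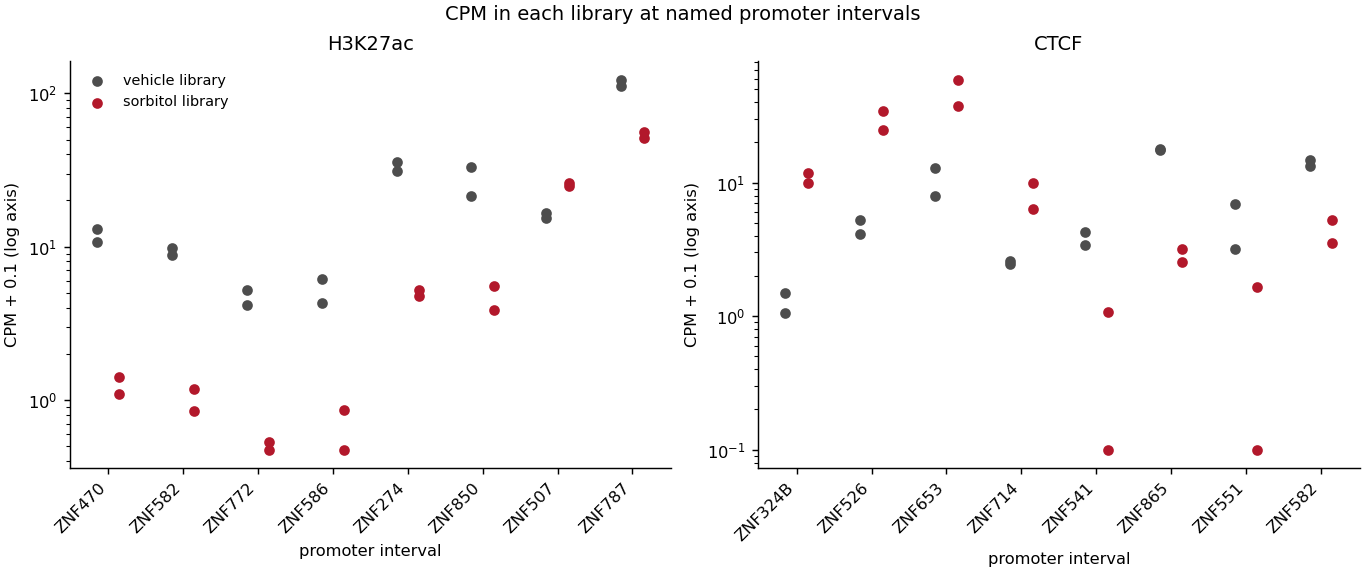
CPM + 0.1 on a log axis at named promoter intervals for H3K27ac (left) and CTCF (right). Each point is 1 library, grey for vehicle and red for sorbitol. For H3K27ac the sorbitol points lie below the vehicle points at 7 of the 8 genes and above them at ZNF507; for CTCF they lie above at the first 4 genes and below at the last 4.

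By position, the H3K27ac values were lowest in cluster 4, with a median log2 fold change of -1.67 over 18 intervals, and next in cluster 6, with -1.56 over 26. Every tested interval of these clusters had a negative value, as did every one of clusters 1, 2, 3, 5 and 8. Cluster 8 had a median of -1.45, cluster 9 of -1.40, cluster 2 of -1.19 and cluster 3 of -1.16. The values were nearer 0 in cluster 1 (-0.86), cluster 5 (-0.82) and cluster 7 (-0.75), and nearest among the isolated genes, at -0.22 over 13 intervals. In cluster 7 the values ran from -2.28 to 0.28 and those of cluster 9 from -3.44 to 0.14, so the clusters overlapped. The promoter with most H3K27ac in cluster 4 was ZNF430, with 44 and 52.5 CPM with vehicle and 28.4 and 32.1 CPM with sorbitol. In cluster 6 it was the interval shared by ZNF146 and ZNF565, with 75.8 and 71.8 CPM and then 31.6 and 29.4 CPM. In cluster 8 it was ZNF432, with 23.7 and 25.3 CPM and then 7.67 and 7.58 CPM. In all of these the libraries of the groups stayed apart, as they did at ZNF77 of cluster 1 (46.4 and 36.9 CPM, then 23.8 and 20.0 CPM), ZNF414 of cluster 2 (76.6 and 69.3 CPM, then 33.0 and 32.3 CPM), ZNF627 of cluster 3 (35.1 and 40.4 CPM, then 26.2 and 21.5 CPM) and ZNF181 of cluster 5 (38.2 and 40.9 CPM, then 25.4 and 23.9 CPM). ZNF850 of cluster 6, whose promoter sequence is printed above, went from 32.9 and 21.4 CPM to 3.78 and 5.47 CPM. In cluster 4, ZNF681 went from 7.90 and 3.43 CPM to 1.30 and 0.497 CPM, and ZNF85 from 5.96 and 5.07 CPM to 0.216 and 1.12 CPM.

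The H3K27ac difference was of like size with and without shared promoters. Tested intervals with starts of 2 genes of the set had a median log2 fold change in H3K27ac of -1.29. Those near a protein-coding start outside the set had -1.24, and the other 168 tested intervals -1.28. The median was -1.41 over the 97 tested intervals that hold the ETS core and -1.19 over the 115 without it. The ETS core was unevenly spread over the clusters, so this split cannot be told apart from cluster position.

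**Figure D2:**
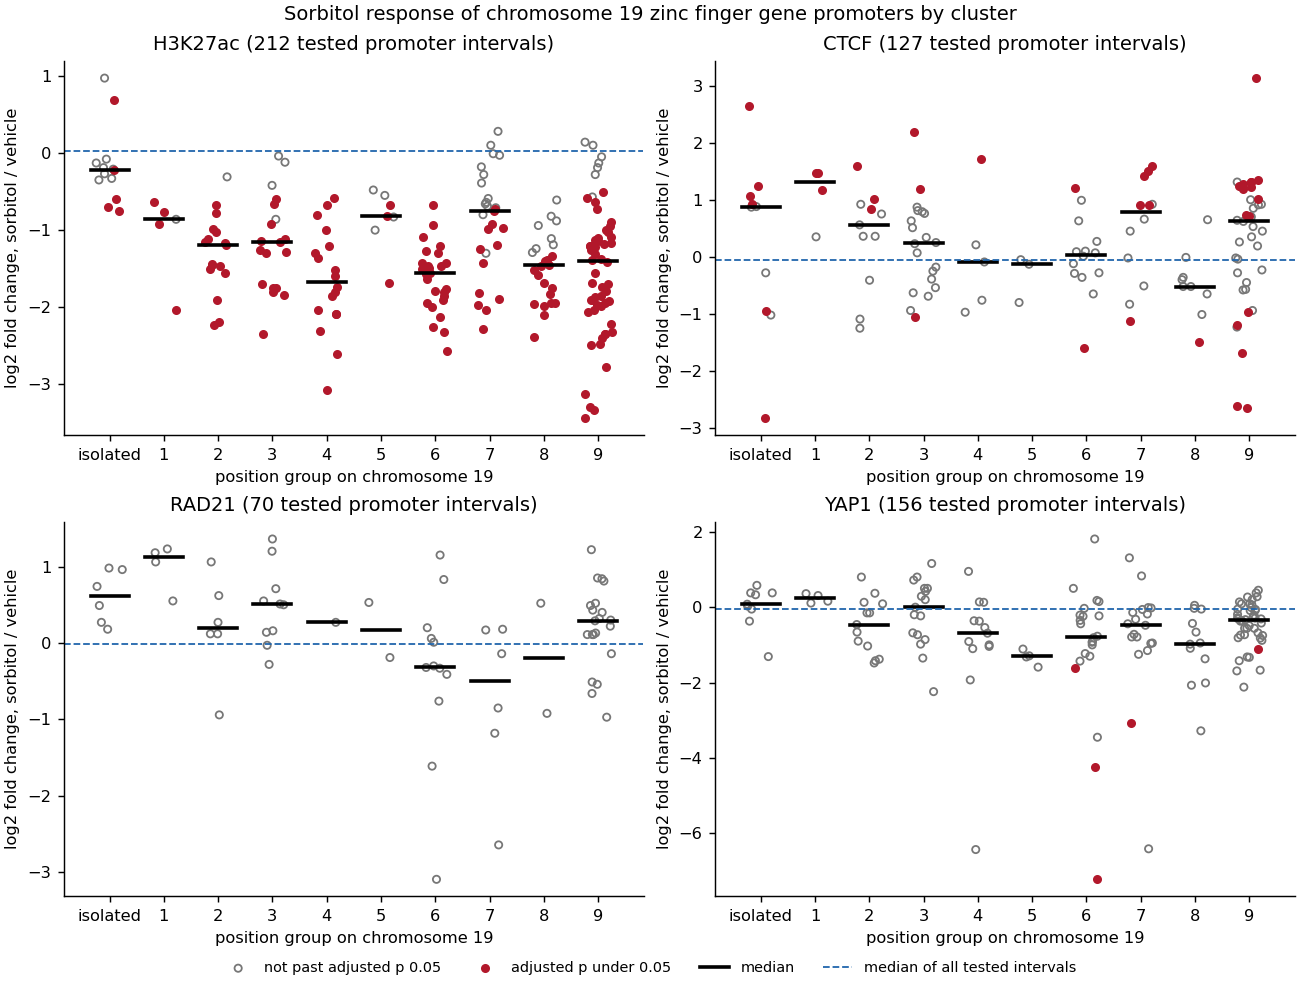
log2 fold change of sorbitol over vehicle (y axis) for every tested promoter interval, by position group on chromosome 19 (x axis, isolated genes first), for the 4 targets. Filled points have an adjusted p under 0.05, black bars are medians of the group and the dashed line is the median of all tested intervals. In H3K27ac the medians run from -1.67 in cluster 4 to -0.22 among isolated genes; RAD21 has no filled point.

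**Figure D3:**
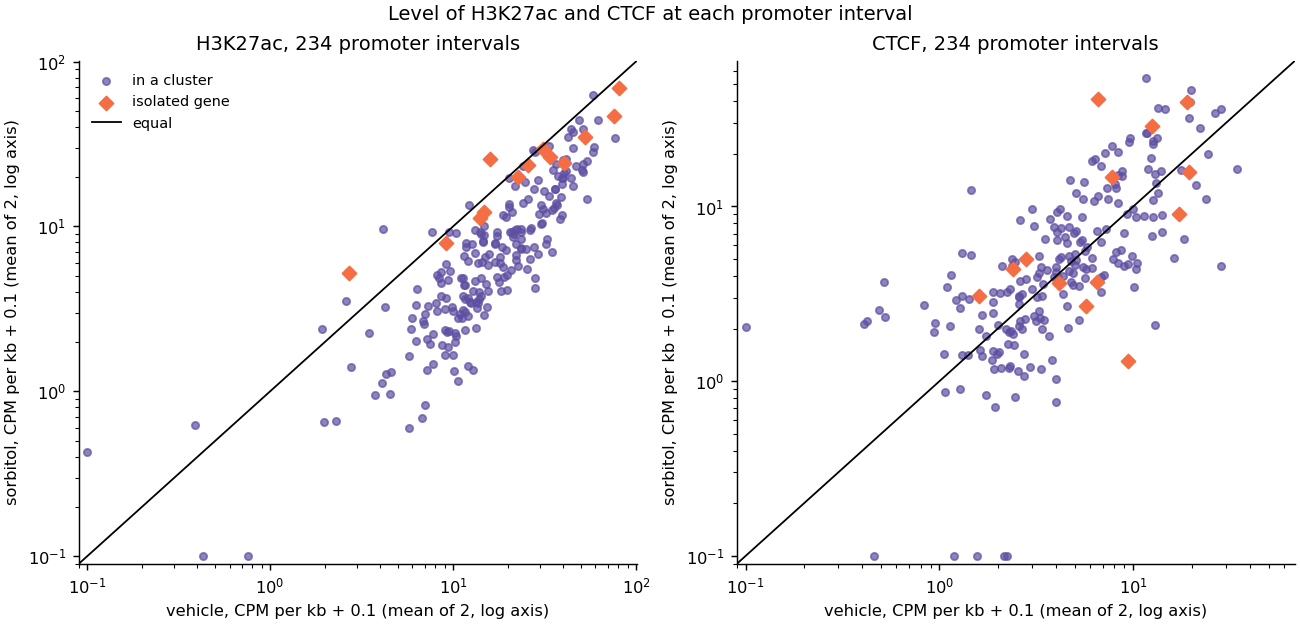
Mean level of 2 libraries per group in CPM per kilobase + 0.1, sorbitol (y) against vehicle (x), both on log axes, for 234 promoter intervals in H3K27ac (left) and CTCF (right). The line marks equal levels. Most H3K27ac points of clusters lie below the line and those of isolated genes (diamonds) lie near it; the CTCF points lie on both sides.

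CTCF at the zinc finger promoters went both ways. Of 127 tested intervals, 30 rose and 11 fell at an adjusted p under 0.05, 32.3% in all, with a median log2 fold change of 0.27. Over all tested intervals 40.2% passed, 19.5% higher and 20.7% lower, with a median of -0.06, so the share in the set was below that of all intervals. All protein-coding promoters had 30.5% higher and 8.76% lower, with a median of 0.48, beside 23.6% and 8.66% in the set. Of the 127, 27 met the count filter in the vehicle libraries alone and 1 in the sorbitol libraries alone. Called among them were the intervals of ZNF541, ZNF551, the ZNF865 intron and ZNF324B. The filter uses library totals before TMM scaling, so an interval kept through 1 group was higher there on totals by construction. This leans its log2 fold change but does not fix it, and 3 of the 27 were called. Promoters of other genes on chromosome 19 gave 621 rises and 46 falls among 1035 tested intervals, with a median of 1.01. ZNF promoters on other chromosomes gave 49 rises and 14 falls among 231, with a median of 0.43. CTCF levels with vehicle were 4.18 CPM per kilobase in the set and 8.66 in the other promoters of chromosome 19.

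These directions depend on the scaling. With libraries scaled to their total counts, which moves the median of all tested intervals from -0.06 to -1.04, 3 zinc finger intervals were higher and 46 lower, against 5.37% and 53.6% of all tested intervals. GC content moved with the CTCF response: across the 127 intervals its Pearson correlation with the log2 fold change was 0.50, a description over intervals that share libraries. With GC-corrected offsets, which lowered that correlation to 0.20, 12 intervals were higher and 13 lower, a median of -0.05, and 21 of the 41 calls kept their direction and threshold. Of all tested intervals 31.2% were then called, 13.9% higher and 17.2% lower. DESeq2 called 25, and 14.5% of all intervals it fitted. Without vehicle replicate 1, 23 were called, and without vehicle replicate 2, 27, where 22.6% and 22.1% of all tested intervals were; the lone vehicle library was then taken to vary like the sorbitol ones.

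**Figure D4:**
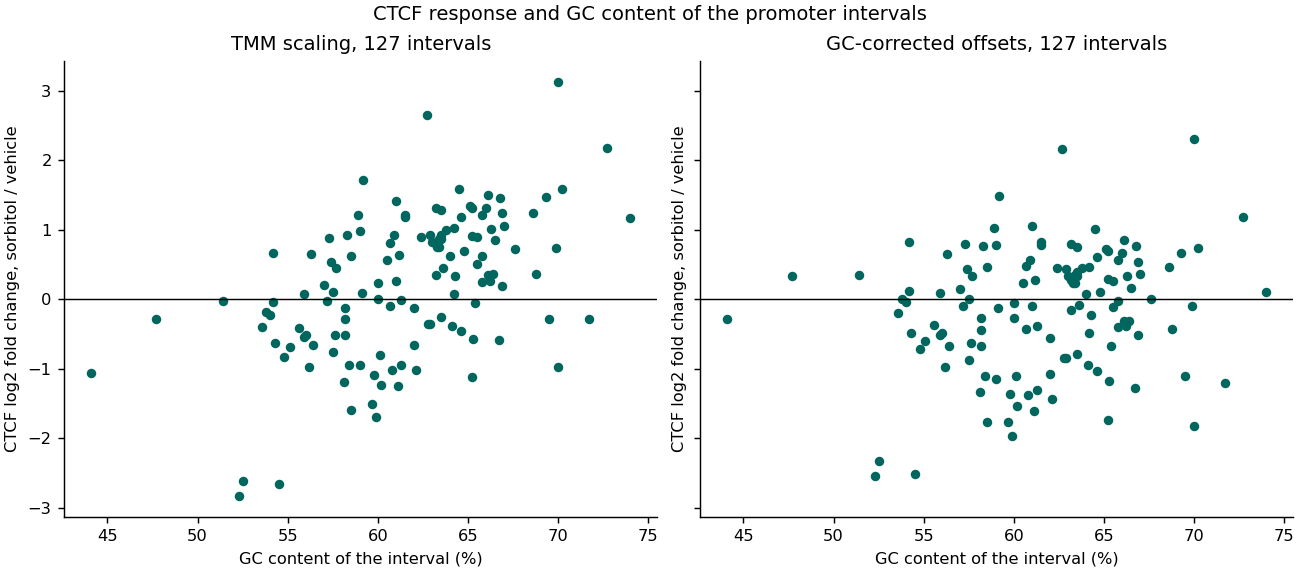
CTCF log2 fold change of sorbitol over vehicle (y axis) against the GC content of the promoter interval in percent (x axis), for 127 tested intervals, with TMM scaling (left) and with GC-corrected offsets (right). Each point is 1 interval. The upward slope on the left, with a correlation of 0.50, is shallower on the right, with 0.20.

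ZNF324B of cluster 9 (chr19:58451345-58452213) had the largest rise in CTCF, from 1.40 and 0.946 CPM with vehicle to 9.83 and 11.8 CPM with sorbitol, or by 3.13 in log2 (SE 0.56, adjusted p = 1.4e-04). ZNF526, an isolated gene (chr19:42219903-42220610), rose from 5.12 and 4.02 CPM to 34.1 and 24.5 CPM, by 2.65 (SE 0.31, adjusted p = 8.9e-07). ZNF653 at the start of cluster 3 (chr19:11504971-11505856) rose from 12.7 and 7.81 CPM to 59.0 and 37.3 CPM, by 2.18 (SE 0.26, adjusted p = 9.4e-07). These 3 calls held in every alternative that gave them a value, total-count scaling and GC correction included. ZNF714 of cluster 4 rose from 2.48 and 2.37 CPM to 6.21 and 9.81 CPM, by 1.71 (SE 0.53, adjusted p = 0.014), but lost its call in 6 of 12 alternatives, with adjusted p up to 0.26. None of these 4 intervals holds the CTCF consensus with at most 1 mismatch. The remaining rises ran from 0.72 to 1.59 on the log2 scale and included ZNF77 and ZNF555 of cluster 1 and both intervals of ZNF296 at the end of cluster 7, named after their values were seen.

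The fall in CTCF with the lowest adjusted p was in an intron of ZNF865 (chr19:55606140-55606759), from 17.4 and 17.7 CPM to 3.10 and 2.45 CPM, with log2 fold change -2.65 (SE 0.41, adjusted p = 3.4e-05). The other promoter interval of ZNF865, chr19:55604954-55605875, rose from 17.7 and 18 CPM to 28.5 and 30.4 CPM, by 0.72 (adjusted p = 0.016). So neighbouring intervals of 1 gene went in opposite directions. At ZNF582, where H3K27ac was also lower, CTCF fell from 13.2 and 14.7 CPM to 5.17 and 3.43 CPM, by 1.69 on the log2 scale (SE 0.40, adjusted p = 0.0023), a call held in all 12 alternatives, as was that of the ZNF865 intron. At ZNF541 the vehicle libraries held 27 and 14 counts and the sorbitol libraries 0 and 2, a ratio of 7.63 (95% counting interval 1.98 to 65.1, adjusted p = 0.019). ZNF551 had 20 and 29 counts and then 3 and 0, a ratio of 6.08 (1.96 to 30.5, adjusted p = 0.024). These last calls were lost in 6 and 5 of 12 alternatives, with adjusted p up to 0.34 and 0.42. Counting intervals cover counting error only, since PCR copies are not independent molecules.

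The CTCF consensus was in 18 of 234 promoter intervals (7.69%) against 12.2% of other protein-coding promoter intervals. Of the 14 tested intervals that hold it, 3 fell and 1 rose, with a median of -0.58; of the 113 without it, 8 fell and 29 rose, with a median of 0.36. The 3 that fell were at ZNF616, ZNF627 and ZNF460, and the 1 that rose was at ZNF584; they are named because the counts are small. By position, the medians were 1.31 in cluster 1, 0.88 among the isolated genes (4 rises and 2 falls among 10 tested intervals), 0.78 in cluster 7, 0.62 in cluster 9 and 0.56 in cluster 2, and lowest in cluster 8, at -0.52 with 1 fall and no rise among 9 tested intervals. The highest CTCF levels were at ZNF524 (22.3 and 22.2 CPM with vehicle, 50.7 and 59.9 CPM with sorbitol), at the intron interval of ZNF846 (31.8 and 25.5 CPM, then 42.4 and 31.9 CPM) and at ZNF784 (19.4 and 17.5 CPM, then 47.6 and 38.8 CPM).

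RAD21 had no interval past an adjusted p of 0.05 among the 70 zinc finger promoters tested with edgeR. Of all tested intervals 4.79% passed. An unadjusted p under 0.05 was found in 9 of the 70, beside 4050 of all 17011 tested intervals. DESeq2 also called 0 in the set, and 0.878% of all intervals it fitted. The median log2 fold change was 0.21, and the values ran from -3.09 to 1.36. The highest levels were at the intervals where CTCF was high. ZNF524 had 40.2 and 23.9 CPM with vehicle and 59.1 and 60.2 CPM with sorbitol, and ZNF784 had 25.2 and 31.9 CPM and then 30.6 and 38.6 CPM. The intervals of ZNF846 had 41.6 and 33.7 CPM and then 46.3 and 36.3 CPM in the intron, and 25.9 and 63.8 CPM and then 14.8 and 30.7 CPM at the exon. Of these 4 intervals only that of ZNF524 had groups that did not overlap, and it did not pass the test. Low counts and 2 libraries per group limit these statements: the libraries had 3.00 to 12.0 counts in the median interval. Of simulated 2-fold changes in RAD21 0% were recovered. That simulation changed 200 of 17011 intervals, fewer than the 815 called in the data, so its adjusted threshold was stricter and its recovery may differ from that here. Over the 69 intervals tested for both, the Pearson correlation between CTCF and RAD21 log2 fold changes was 0.46, as a description. Medians by cluster ran from 1.12 in cluster 1 to -0.50 in cluster 7, with 1 to 21 tested intervals each.

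YAP1 fell at 5 of 156 tested zinc finger promoters and rose at none. Over all tested intervals 6.83% passed, and 1.49% fell. Of the 156, 73 met the count filter in the vehicle libraries alone and none in the sorbitol libraries alone, so the medians and counts over tested intervals lean to lower values by construction. The median log2 fold change was -0.39 in the set, -0.35 at ZNF promoters on other chromosomes, 0.13 at other promoters of chromosome 19 and -0.04 over all tested intervals. In 73 of the 156 both sorbitol libraries were below both vehicle libraries, 46.8% against 27.6% of all tested intervals. With libraries scaled to their total counts 126 of the 156 were lower, where 63.5% of all tested intervals were. With vehicle the level was 5.92 CPM per kilobase, against 5.99 over all protein-coding promoters.

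Of the 5 promoters where YAP1 fell, 3 are shared by 2 genes of the set and lie in cluster 6. At the interval of ZNF570 and ZNF569 (chr19:37466917-37467647) the vehicle libraries held 23 and 35 counts and both sorbitol libraries 0, so that the level was at least 2.46-fold lower against a floor of 3 counts per library (adjusted p = 0.015). At that of ZNF829 and ZNF568, the latter with a mouse counterpart that represses a placental Igf2 transcript, there were 50 and 32 counts and then 0 and 1, a ratio of 20.9 (95% counting interval 3.64 to 835, adjusted p = 0.0096). At that of ZNF383 and ZNF585B YAP1 fell from 13.3 and 12.2 CPM to 4.77 and 3.38 CPM, by 1.61 on the log2 scale (SE 0.45, adjusted p = 0.036). The others were ZNF223 of cluster 7, with 40 and 28 counts and then 2 and 0, a ratio of 8.66 (2.3 to 72.9, adjusted p = 0.043), and ZNF460 of cluster 9, from 21.9 and 19.9 CPM to 10.7 and 8.46 CPM (log2 fold change -1.10, SE 0.32, adjusted p = 0.044). In all 5 the groups did not overlap, but 4 of them, all except ZNF460, met the count filter in the vehicle libraries alone. They were thus lower on library totals by construction, which leans the log2 fold change on TMM-scaled sizes but does not fix it. Of the 73 intervals kept in this way, 4 were called. The number of calls changed when 1 library was left out, which leaves 1 library in that group. Without YAP1 vehicle replicate 1 no zinc finger promoter fell and 1 rose, where 3.15% of all tested intervals were called. Without vehicle replicate 2 there were 1 fall and 1 rise, where 3.35% of all tested intervals were called. Without sorbitol replicate 1 there were 13 falls and 2 rises, where 7.33% of all tested intervals were called. A call lost in this way does not show that the fall rests on the library left out. Of 12 alternatives, the call was lost in 5 for ZNF383 and ZNF585B, the replicate block among them (adjusted p up to 0.38), in 4 for ZNF223 (up to 0.58), in 3 for ZNF570 and ZNF569 (up to 0.56) and in 1 for ZNF829 and ZNF568 (0.29).

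None of the 4 promoters with most YAP1 passed the test, and at the first 3 the groups overlapped or met. ZNF524 had 50 and 52.5 CPM with vehicle and 42.9 and 54.2 CPM with sorbitol, ZNF787 had 38.1 and 34.0 CPM and then 44.1 and 38.1 CPM, and ZNF414 had 34.7 and 26.7 CPM and then 35.1 and 29.6 CPM. At ZNF497 the groups did not overlap, with 34.4 and 34.2 CPM and then 27.4 and 25.4 CPM (log2 fold change -0.37), without a call. ZNF524 was thus among the highest promoters of the set for all 4 targets. Medians by position ran from -1.30 in cluster 5 and -0.96 in cluster 8 to 0.08 among isolated genes and 0.23 in cluster 1. At ZNF470, YAP1 was 8.27 and 4.15 CPM with vehicle and 5.96 and 0 CPM with sorbitol, so the groups overlapped. At ZNF582 it was 6.32 and 5.13 CPM and then 1.19 and 3.38 CPM, a log2 fold change of -1.42 without a call.

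The share of counts in the set does not depend on scaling between libraries. Of all counts in nuclear protein-coding promoters, without the YAP1 gene and unplaced contigs, the zinc finger promoters took 0.574% and 0.578% in the H3K27ac vehicle libraries and 0.323% and 0.318% in the sorbitol ones. For YAP1 they took 0.941% and 0.902% and then 0.763% and 0.774%. For CTCF they took 0.616% and 0.598% and then 0.594% and 0.563%, and for RAD21 0.817% and 0.829% and then 0.805% and 0.725%. The groups did not overlap for any target, with a wide gap for H3K27ac, a smaller one for YAP1 and a narrow one for CTCF and RAD21. When the 12 dominant promoter intervals, of which 9 are mitochondrial and the other 3 lie in the YAP1 gene, are left in the reference, the sorbitol minus vehicle difference in log2 share ratio goes from -0.07 to -0.88 for CTCF, from -0.11 to -0.57 for RAD21 and from -0.26 to -1.73 for YAP1, and stays at -0.85 for H3K27ac. Against the other promoters of chromosome 19 alone, the zinc finger promoters took 11.6% ± 0.0599 (SD, n = 2) of H3K27ac counts with vehicle and 8.71% ± 0.0323 with sorbitol. In CTCF libraries they took 6.77% ± 0.128 and then 4.76% ± 0.192. In RAD21 libraries they took 9.86% ± 0.323 and then 7.17% ± 0.772, and in YAP1 libraries 9.70% ± 0.186 and then 7.23% ± 0.158. No test was made of these shares, which are sums over the members.

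**Figure D5:**
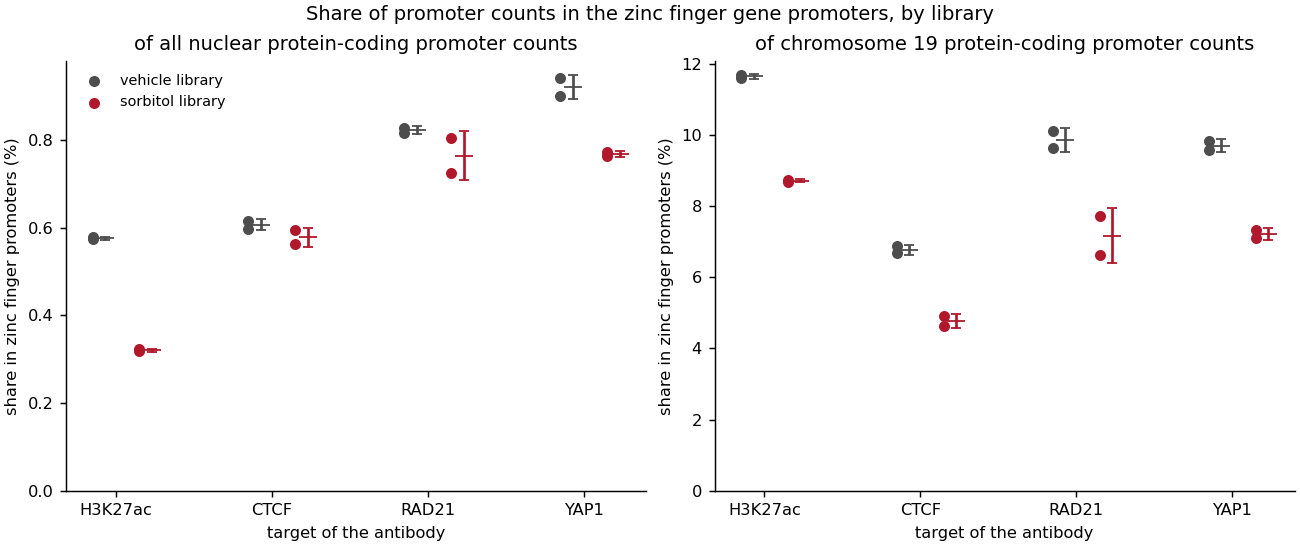
Share of counts in the zinc finger promoters, in percent (y axis), of all nuclear protein-coding promoter counts (left) and of protein-coding promoter counts on chromosome 19 (right), by target (x axis). Each point is 1 library, grey for vehicle and red for sorbitol; dashes with bars are the mean and SD of 2 libraries. All sorbitol points lie below the vehicle points of their target, by most in the left panel for H3K27ac, at 0.320% against 0.576%.

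Last exons, which hold the zinc finger array in most of these genes, had few intervals. Only 3 of the 249 genes (1.20%) had an interval over the last exon that was not a promoter interval, against 8.24% of ZNF genes on other chromosomes, 8.80% of other genes of chromosome 19 and 6.63% of all protein-coding genes. The last exons of the set were longer, with a median of 3338 bases against 732 in the other genes of chromosome 19. At ZNF837 of cluster 9 (chr19:58368047-58368489, coding sequence) CTCF rose from 3 and 0 counts with vehicle to 28 and 28 with sorbitol, a ratio of 50.2 (95% counting interval 16.3 to 251, adjusted p = 1.9e-06). It met the count filter in the sorbitol libraries alone, so it had to differ once it was tested. The interval has a GC content of 72.0%, and its RAD21 was 1.46 and 1.77 CPM with vehicle and 0 with sorbitol, and its H3K27ac was under 1 CPM in each library. The promoter of ZNF837 rose in CTCF too, from 13.5 and 11.6 CPM to 33.6 and 28.0 CPM (log2 fold change 1.28, adjusted p = 3.6e-04). The last-exon intervals of ZNF574 and ZNF283 were too low to test for CTCF, RAD21 and YAP1; ZNF283 had 0 CTCF, RAD21 and H3K27ac counts in every library.

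Some intervals lay near the limit of 1 kb, so membership depends on where it was set. Just inside were intervals of ZNF264, 910 bases from a start, with 3.09 CPM of H3K27ac with vehicle and 1.03 CPM with sorbitol, and of ZNF576, 954 bases away, with 21.6 and 23.1 CPM. Just outside were those of ZNF28, at 1058 bases, with 0.403 and 0.945 CPM, and of ZNF584, at 1302 bases, with 3.08 and 1.99 CPM.

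The genes of the silencing pathway in which KRAB zinc finger proteins act were read from a list of 27 genes with 46 promoter intervals. In CTCF 15 of 32 tested intervals rose and 3 fell, beside 19.5% and 20.7% of all tested intervals and 30.5% and 8.76% of all protein-coding promoters. In RAD21 2 of 24 rose, where 4.79% of all tested intervals were called in either direction, and in YAP1 1 of 34 rose and 1 fell, where 6.83% were called. TRIM28, the corepressor itself, which lies beside cluster 9, rose in YAP1 from 44.9 and 39.7 CPM to 73.3 and 61.8 CPM, by 0.68 (SE 0.20, adjusted p = 0.043). RESF1, a partner of SETDB1, fell in YAP1 from 5.19 and 6.52 CPM to 1.19 and 0 CPM (adjusted p = 0.048). UHRF1, which reads methylated DNA during replication, rose in CTCF from 7.45 and 4.26 CPM to 19.1 and 34.3 CPM (log2 fold change 2.14, adjusted p = 3.9e-05) and in RAD21 from 8.40 and 9.74 CPM to 29.6 and 35.2 CPM (1.85, adjusted p = 0.029). In H3K27ac, without a test, the TRIM28 interval went from 86.4 and 91.7 CPM to 28.6 and 26 CPM, and the median over 44 tested intervals was -0.28.

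A further list held 16 zinc finger genes of chromosome 19 that are not named ZNF, such as ZFP and ZSCAN genes. Of these, 8 had a promoter interval, 1 of which was also an interval of the set. Their H3K27ac log2 fold changes had a median of -1.53 and were all negative, for example from 53.0 and 62.3 CPM to 21.5 and 19.1 CPM at ZFP30. In CTCF 1 of 7 tested intervals rose, that of MZF1, from 17.2 and 12.5 CPM to 51.2 and 45.6 CPM (log2 fold change 1.67, adjusted p = 2.8e-06), and in RAD21 and YAP1 none passed the test.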

How the data were processed

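Values in the table deposited by the authors are counts of whole reads or fragments in each interval, which the authors did not scale between libraries, as far as the values show; 16 columns were mapped to 16 libraries by name. Per the submitters' processing notes, the tools include Trim Galore, FastQC, BWA 0.7.17, SAMtools, Picard, MACS2 2.2.6 and bedtools 2.31.1, and the build is hg38; their settings, and whether peaks were called on pooled reads, are not given in the sources used here. All 74404 intervals fitted the chromosome lengths of hg38. The intervals are shared by all targets, so an interval is not a call for 1 target. Genes came from GENCODE release 44.

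For each target the 4 libraries were fitted with edgeR 4.0.16 (R 4.3.3): the quasi-likelihood test with robust fit, TMM scaling, filterByExpr with a minimum count of 10, two-sided, and Benjamini-Hochberg adjustment over all tested intervals of that target. A call is an adjusted p under 0.05, and every adjusted p printed comes from this fit unless an alternative is named. Levels are CPM on TMM-scaled library sizes. Share ratios are log2 of summed counts in the set over those in other protein-coding promoter intervals of the same library. The lists, members and rule for named genes were chosen with earlier results of these data known. The rule names the 2 genes that prompted the set, the 4 largest rises and falls per target with libraries that do not overlap, the 4 highest per target, the highest H3K27ac promoter of each cluster and the last-exon intervals. ZNF85, ZNF681 and ZNF850 were added after their values were seen, as was ZNF460 as the remaining YAP1 call. Tested on simulated data with 200 intervals changed 2-fold, edgeR recovered 36.5% of them for H3K27ac, 19.0% for CTCF, 9.0% for YAP1 and 0% for RAD21. More intervals than 200 were called in the data of each target, so the adjusted threshold was stricter in the simulation and recovery in the data may differ. Alternatives were DESeq2 1.42.0, total-count scaling, other count filters, GC-corrected offsets, the replicate number as a block and leaving out each library.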

Additional observations from a re-analysis of the deposited data

How the results depend on the processing

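Depth limits CTCF, RAD21 and YAP1 more than H3K27ac, and 2 libraries per group limit every result. The count of called promoter intervals in CTCF, 41 of 127 (32.3%, against 40.2% of all tested intervals), became 25 of 234 with DESeq2 (10.7% against 14.5%), 16 of 24 where the mean count had to reach 50 (66.7% against 55.5%), 25 of 127 with GC-corrected offsets (19.7% against 31.2%) and 21 with these and the replicate block (16.5% against 26.1%); leaving out 1 library gave 23 to 41. In RAD21 the count of 0 became 2 with total-count scaling (2.86%, against 8.53% of all tested intervals). With GC-corrected offsets it was 1 (1.43% against 4.57%). Without 1 library the median log2 fold change ran from 0.15 to 0.31. In YAP1 the count of 5 became 126 with total-count scaling, 20 with no count filter, 2 with a mean of at least 50 counts, and 3 with the replicate block, with or without GC-corrected offsets; leaving out 1 library gave 1 to 15. In H3K27ac the count of 165 became 103 with a mean of at least 50 counts, which leaves 125 tested intervals (82.4% called, against 46.6% of all tested intervals). The set was chosen on this contrast, so nothing is read from its H3K27ac call shares, here or with the replicate block below. The stricter filter tests fewer intervals by construction; the cause of the other changes was not tested. The log2 share ratio of sorbitol over vehicle, with all other protein-coding promoter intervals as reference, was -0.85 for H3K27ac, -0.88 for CTCF, -0.57 for RAD21 and -1.73 for YAP1. Without dominant intervals in the reference, a choice made after seeing the data, it was -0.07 for CTCF, -0.11 for RAD21 and -0.26 for YAP1. With medians of log2 counts it was -1.07 for H3K27ac, -0.25 for CTCF, -0.13 for RAD21 and -0.23 for YAP1. With other chromosome 19 promoters as reference it was -0.54 for CTCF, -0.46 for YAP1 and -0.46 for H3K27ac, and within 250 bp of a start -0.89 for H3K27ac. No share ratio reversed its sign, but of the 41 CTCF calls 6 changed sign with total-count scaling and 2 with GC-corrected offsets, and 1 of the 165 H3K27ac calls did with the latter. Same-numbered vehicle and sorbitol libraries showed no shared deviation over intervals: correlations were between -0.00859 for CTCF and 0.00541 for YAP1. With 2 libraries per group this cannot settle whether replicates were prepared as pairs. The replicate block gave 38 calls in CTCF (29.9%, against 35.2% of all tested intervals) and 0 in RAD21 (against 2.77%). It gave 3 in YAP1 (1.92% against 5.83%) and 167 in H3K27ac (78.8% against 23.4%). None of the last-exon intervals was tested in RAD21 or YAP1 with the count filter of edgeR, and with DESeq2 or no count filter, where 2 and 3 were tested, none was called; the last-exon counts of CTCF (1) and H3K27ac (0) did not move in the alternatives that gave a value.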
